A study of Homo sapiens with 16 samples.

Results

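The comparison described here asked what changed in Be(2)-C cells when EPZ-6438, an inhibitor of the histone methyltransferase EZH2, was given on top of DAC. It rests on 4 of the 16 libraries of the series, 2 from Be(2)-C cells given DAC (DAC 1 and DAC 2) and 2 from Be(2)-C cells given both drugs (DAC+EPZ 1 and DAC+EPZ 2). Of 23459 genes, 15967 passed a filter on low counts, and all of these were tested. Be(2)-C is a human neuroblastoma cell line, and all 4 libraries share 72 h of DAC at 1 µM; only EPZ-6438, called EPZ from here on, at 1 µM for 96 h, sets the groups apart. The remaining Be(2)-C libraries, 2 with the solvent DMSO and 2 with EPZ but no DAC, and the same 4 treatments in the neuroblastoma line IMR5-75, were used to show where the response differed. Total RNA was sequenced and reads were counted per gene, and both lines are established cell lines.

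EZH2 is the catalytic subunit of Polycomb repressive complex PRC2, which methylates lysine 27 of histone H3 at promoters of developmental genes and keeps them silent. The labels do not spell out DAC; the name usually stands for decitabine, a cytidine analogue that traps DNA methyltransferases and lowers DNA methylation at the following cell divisions. Methylated DNA and the PRC2 mark are separate layers of silencing, and in neuroblastoma both have been described at genes of neuronal differentiation, neurotrophin receptors and tumour suppressors.

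The 4 libraries held 12143657 (DAC 1), 11076713 (DAC 2), 11598843 (DAC+EPZ 1) and 9539557 (DAC+EPZ 2) counts, within the range of 9539557 to 14032155 of the series. Levels below are library-scaled counts (CPM, scaled by the TMM method), given for both libraries of a group in the order 1 and 2. Changes are log2 differences of DAC+EPZ against DAC ± SE unless another pair is named. The SE was derived from the test, as the size of the log2 change over the square root of its F statistic. It is approximate, and unreliable where the change or the counts are near 0. A gene is called when its adjusted p from edgeR's quasi-likelihood test with Benjamini-Hochberg adjustment over all genes is under 0.05, and "rose" and "fell" are kept for called genes. The labels do not say that the 2 libraries of a group came from separate cultures, so a p-value here sets a change against the spread of single libraries, and that spread may be no more than technical. A marker of the labelled cell type was present in all 4 libraries: HAND2, a transcription factor of sympathetic neuroblasts, lay between 623 and 645 CPM in the 4 libraries. Defining markers of other cells were at or near 0, among them SOX10 of glia (0 to 0.419 CPM), CDH1 of epithelium (0 to 0.370 CPM), CD3E of T cells (0 to 0.105 CPM), SPI1 of myeloid cells (0 to 0.185 CPM) and PECAM1 of endothelium (0 to 0.210 CPM). The summed level of 16 Schwann and glial markers was 337 and 373 CPM with DAC and 425 and 381 CPM with DAC+EPZ, and that of 22 epithelial markers 26.6 and 29.6 against 31.9 and 36.7 CPM. For 18 haematopoietic markers it was 8.56 and 10.8 against 7.75 and 9.54 CPM, and for 12 endothelial markers 11.9 and 12.2 against 14.4 and 14.3 CPM. Below 1 CPM in all 4 libraries were 6, 17, 14 and 9 members of these lists, and their part in the results was not tested.

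Adding EPZ to DAC raised genes of the extracellular matrix and lowered genes of DNA replication, mitosis and the amino acid stress response. Of the 15967 genes tested, 869 were called (5.44%), 546 higher (3.42%) and 323 lower (2.02%). The higher genes changed more and started from lower levels: their median change was 0.98 and their median level with DAC 6.5 CPM, against -0.63 and 55.7 CPM for the lower genes, beside a median of 0.01 and 19.8 CPM over all genes tested. At least 2-fold changes were seen in 264 of the higher and 47 of the lower genes, and at least 4-fold changes in 60 and 14. The DAC and DAC+EPZ libraries did not overlap for any of the 869, which was also the case, in the higher and lower direction, for 24.6% and 20.3% of all genes tested. The number of calls depended on each library: it was 255 higher and 149 lower without DAC 1, 213 and 151 without DAC 2, 305 and 141 without DAC+EPZ 1, and 213 and 101 without DAC+EPZ 2. In all 4 of these fits 120 of the higher and 58 of the lower genes were called. At an unadjusted p under 0.05 stood 2758 genes.

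**Figure D1:**
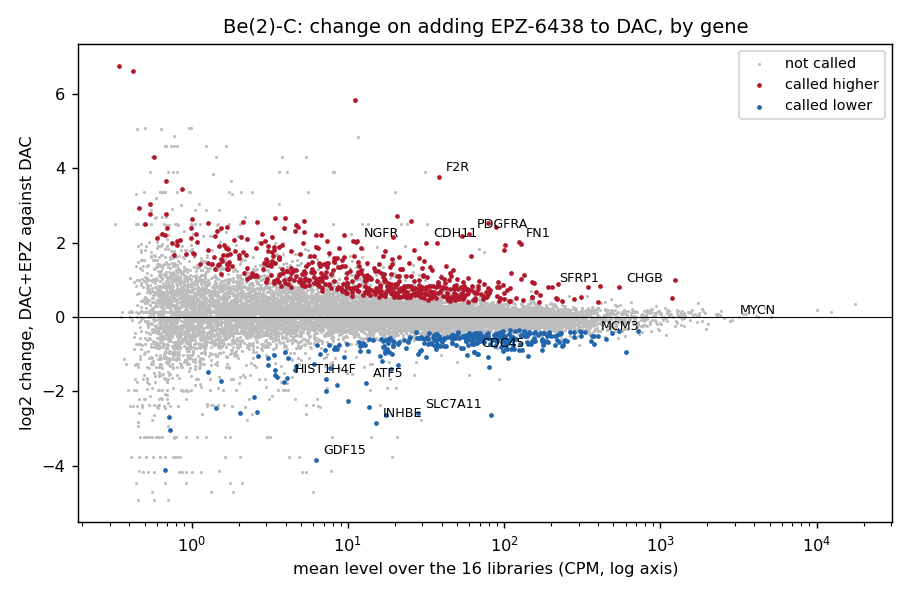
Each point is 1 of the 15967 genes tested; the horizontal axis is the mean level over the 16 libraries (CPM, log axis) and the vertical axis the log2 change of DAC+EPZ against DAC in Be(2)-C, with called genes in colour. The 546 genes called higher (red) reach larger changes than most of the 323 called lower (blue), and MYCN lies close to no change; fitted changes of genes with almost no counts in 1 group are not measured folds.

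**Figure D2:**
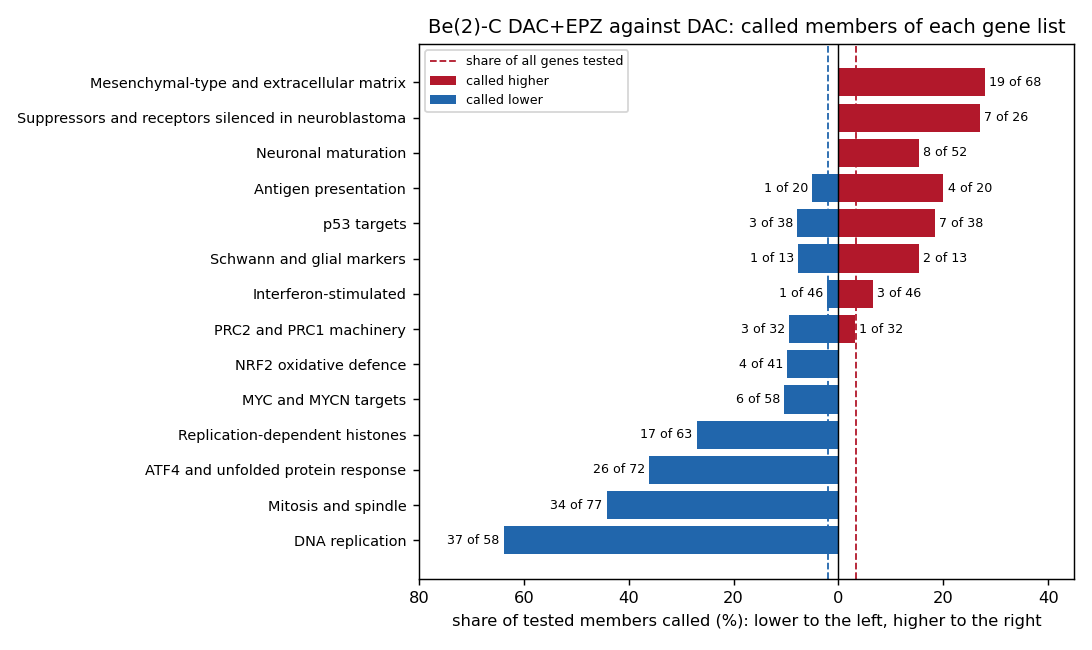
Bars give the share of tested members of each gene list (percent) that were called higher (red, to the right) or lower (blue, to the left) in Be(2)-C DAC+EPZ against DAC, with the number of members beside each bar; lists with fewer than 3 called members are not drawn. Dashed lines mark the shares over all genes tested, 3.42% higher and 2.02% lower; DNA replication has the largest share lower (37 of 58) and the matrix list the largest share higher (19 of 68).

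EZH2, the target of EPZ-6438, had 81.9 and 74.2 CPM with DAC and 59.5 and 60.2 CPM with DAC+EPZ (-0.38 ± 0.11, adjusted p = 0.0398), and the call ended with any 1 of the 4 libraries left out. EZH1, the second methyltransferase that PRC2 can carry, had 38.9 and 37.4 CPM with DAC and 38.0 and 47.0 CPM with DAC+EPZ (0.15 ± 0.13, adjusted p = 0.614). For the core subunits SUZ12 and EED the changes were -0.30 ± 0.14 and -0.19 ± 0.14 (adjusted p = 0.283 and 0.554). Of the 32 genes of the PRC2 and PRC1 machinery 1 was called higher (3.12%, beside 3.42% of all genes) and 3 lower (9.38%, beside 2.02%). The higher one was JARID2, a PRC2 cofactor that helps recruit the complex (50.9 and 45.9 CPM with DAC and 64.5 and 67.8 CPM with DAC+EPZ, 0.45 ± 0.11, adjusted p = 0.0185). PHF19, a PRC2 subunit that binds methylated lysine 36 of histone H3, fell by 0.55 ± 0.13, and PCGF6, a subunit of a variant PRC1, fell by 0.57 ± 0.14. The calls of JARID2 and PHF19 ended with any 1 of the 4 libraries left out, and that of PCGF6 without DAC 2, DAC+EPZ 1 or DAC+EPZ 2.

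Among 15 genes of the DNA methylation machinery 1 was called, in the lower direction (6.67%, beside 2.02% of all genes). That call describes 1 gene and not the list. UHRF1, which brings DNMT1 to newly replicated DNA, had 146 and 135 CPM with DAC and 71.6 and 81.3 CPM with DAC+EPZ and fell by 0.88 ± 0.11 (adjusted p = 7.75e-05), with the call present without each library in turn. In the libraries without DAC it had 211 and 209 CPM with DMSO and 122 and 117 CPM with EPZ, so the groups given EPZ lay below their own comparison groups. DNMT1, the maintenance methyltransferase, changed by -0.35 ± 0.13 (adjusted p = 0.125). MYCN, the amplified oncogene of this line, was measured at 4133 and 4094 CPM with DAC and 3824 and 4003 CPM with DAC+EPZ and changed by -0.07 ± 0.14 (adjusted p = 0.861).

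Part of the genes of the extracellular matrix and the mesenchymal-type state rose. In that state neuroblastoma cells express adhesion and matrix genes. Of 68 tested members 19 were called, all higher (27.9%, beside 3.42% of all genes). The median change was 0.50 over all 68, and 2 lay lower at an unadjusted p under 0.05. FN1, the matrix glycoprotein fibronectin, had 24.9 and 21.3 CPM with DAC and 84.4 and 101 CPM with DAC+EPZ. Both DAC+EPZ libraries lay more than 3-fold above both DAC libraries, a change of 2.01 ± 0.15 (adjusted p = 9.69e-08). PDGFRA, a receptor for platelet-derived growth factor, had 3.95 and 4.08 CPM with DAC and 18.4 and 19.6 CPM with DAC+EPZ (2.24 ± 0.17, adjusted p = 1.96e-07). CDH11, a cadherin of mesenchymal cells, had 4.11 and 3.43 CPM with DAC and 15.5 and 14.7 CPM with DAC+EPZ (1.99 ± 0.20, adjusted p = 3.95e-06). In these 3 genes the libraries of a group lay close together and the groups far apart.

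Basement membrane collagen rose through both genes of one locus. COL4A1 and COL4A2 encode the collagen IV chains and share a promoter on chromosome 13. COL4A1 had 1.81 and 0.834 CPM with DAC and 5.61 and 6.71 CPM with DAC+EPZ. COL4A2 had 1.32 and 1.20 CPM with DAC and 6.41 and 7.34 CPM with DAC+EPZ, so that for both genes all DAC+EPZ values lay above all DAC values. The changes were 2.18 ± 0.28 (adjusted p = 8.53e-05) and 2.43 ± 0.27 (adjusted p = 2.47e-05), and that of COL4A1 was 2.86 without DAC 1. SPARC, a collagen-binding matrix protein, had 32.5 and 27.4 CPM with DAC and 57.5 and 64.9 CPM with DAC+EPZ and rose by 1.03 ± 0.12. FBN1, the microfibril protein fibrillin, rose by 1.00 ± 0.16, COL6A3, a collagen VI chain, by 1.43 ± 0.20, and FBLN2, or fibulin, by 1.37 ± 0.22. COL3A1, a fibrillar collagen, rose by 1.81 ± 0.31 from 1.89 and 0.741 CPM with DAC and 5.52 and 3.88 CPM with DAC+EPZ, and by 2.66 without DAC 1. Without each of the 4 libraries in turn, between 15 and 19 members of the list were called higher.

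Other called members of the list encode binding proteins, a protease, a protease inhibitor and a receptor. IGFBP3, which binds insulin-like growth factors, rose by 1.33 ± 0.18, and its relatives IGFBP5 and IGFBP7 rose by 0.81 ± 0.13 and 0.87 ± 0.14. MMP14, a membrane-bound matrix protease, rose by 1.87 ± 0.34, with the call lost without DAC+EPZ 1, and TIMP3, a protease inhibitor, by 0.79 ± 0.17, with the call lost without DAC 2 or DAC+EPZ 2. AXL, a receptor tyrosine kinase common in mesenchymal-type cells, had 1.07 and 1.30 CPM with DAC and 5.25 and 5.56 CPM with DAC+EPZ (2.19 ± 0.36, adjusted p = 0.000776). VIM, or vimentin, was at 328 and 335 CPM with DAC and 409 and 422 CPM with DAC+EPZ and was not called (0.33, adjusted p = 0.149). SNAI2, a transcription factor of the mesenchymal-type state, was not called either (-0.07, adjusted p = 0.924). The summed level of the list was 3979 and 3894 CPM with DAC and 4627 and 4623 CPM with DAC+EPZ.

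**Figure D3:**
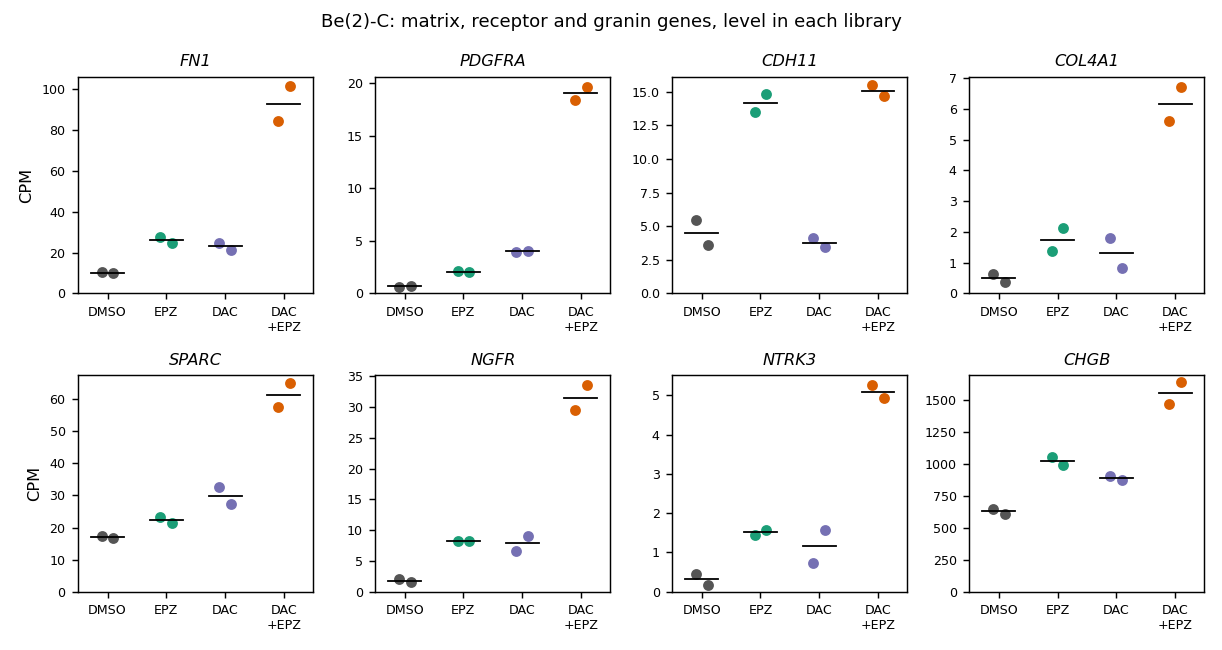
Each panel shows 1 gene; points are single Be(2)-C libraries, horizontal bars the mean of the 2 libraries of a group, and the vertical axis the level in CPM from 0. In all 8 genes both DAC+EPZ libraries lie above both DAC libraries; for FN1 the values are 84.4 and 101 CPM against 24.9 and 21.3 CPM.

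Receptors and growth suppressors that are silenced in aggressive neuroblastoma rose in part. Of 26, 7 were called, all higher (26.9%, beside 3.42% of all genes, median 0.35). NGFR, the low-affinity neurotrophin receptor p75, had 6.66 and 9.08 CPM with DAC and 29.5 and 33.6 CPM with DAC+EPZ (2.00 ± 0.26, adjusted p = 8.3e-05). NTRK3, the receptor for neurotrophin-3, had 0.740 and 1.57 CPM with DAC and 5.25 and 4.93 CPM with DAC+EPZ (2.15 ± 0.34; 2.76 without DAC 2). These 2 receptor genes thus lay higher in both DAC+EPZ libraries.

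SFRP1, a secreted WNT antagonist, was abundant at 242 and 217 CPM with DAC and 404 and 400.0 CPM with DAC+EPZ and rose by 0.81 ± 0.11 (adjusted p = 0.000175). DKK3, a further secreted regulator of WNT signalling, rose by 0.54 ± 0.14, DUSP6, a phosphatase that switches off ERK kinases, by 1.12 ± 0.21, and TNFRSF10D, a decoy receptor for the death ligand TRAIL, by 1.62 ± 0.40. The calls of DKK3 and TNFRSF10D ended with any 1 of the 4 libraries left out, and that of DUSP6 without DAC 1 or DAC+EPZ 1. CASP8, the initiator caspase that is often silenced in neuroblastoma, was not called, at 1.23 and 1.67 CPM with DAC and 1.07 and 1.05 CPM with DAC+EPZ (adjusted p = 0.731). CLU, or clusterin, a reported EZH2 target in this tumour, changed by 0.37 (adjusted p = 0.169). The count of called members was 4 or 5 when DAC 1 or DAC 2 was left out and 4 or 5 when DAC+EPZ 1 or DAC+EPZ 2 was.

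Genes of neuronal maturation gave 8 called of 52, all higher (15.4%, beside 3.42% of all genes, median 0.18). CHGB, a granin of secretory vesicles, had 906 and 869 CPM with DAC and 1462 and 1637 CPM with DAC+EPZ (0.80 ± 0.13, adjusted p = 0.000653). SCG5, a chaperone of prohormone convertases, had 78.6 and 91.5 CPM with DAC and 132 and 133 CPM with DAC+EPZ (0.64 ± 0.12, adjusted p = 0.00206) and lost its call without DAC 1. DCX, a microtubule protein of migrating neurons, rose by 0.74 ± 0.16 and was called neither without DAC 2 nor without DAC+EPZ 2. The neurofilament genes NEFM and NEFL and the growth cone gene GAP43 were not called, with changes of 0.18, -0.02 and 0.11 (adjusted p = 0.516, 0.956 and 0.747). With single libraries left out, the number of called members was 5 or 3 when DAC 1 or DAC 2 was left out and 6 or 4 when DAC+EPZ 1 or DAC+EPZ 2 was.

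Noradrenergic identity genes, which define the sympathetic cell state, gave 2 called of 26, both higher (median 0.14), a share of 7.69%, and 5 by DESeq2's Wald test. The 2 were CHGB, which is also in the neuronal list, and SLC18A2, the vesicular monoamine transporter, with 30.4 and 21.6 CPM with DAC and 41.3 and 43.1 CPM with DAC+EPZ (0.70 ± 0.15, adjusted p = 0.00845, lost without DAC 2 or DAC+EPZ 2). DBH, which makes noradrenaline, had 128 and 127.6 CPM with DAC and 169 and 204.5 CPM with DAC+EPZ and missed the threshold (0.55, adjusted p = 0.0596). TH, the first enzyme of catecholamine synthesis, changed by 0.09 (adjusted p = 0.897), and the regulators PHOX2A, HAND2, GATA3 and ISL1 were not called.

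Antigen presentation gave 4 higher and 1 lower of 20 genes (median 0.21), and 1 and 1 by DESeq2's Wald test. The edgeR shares were 20.0% and 5.0%, beside 3.42% and 2.02% of all genes. The class I heavy chains HLA-C and HLA-B are encoded by neighbours on chromosome 6. HLA-C had 29.1 and 33.5 CPM with DAC and 51.5 and 57.7 CPM with DAC+EPZ. HLA-B had 0.411 and 1.11 CPM with DAC and 3.29 and 3.25 CPM with DAC+EPZ, from 17 counts over both DAC libraries and 68 over both DAC+EPZ libraries. Their changes were 0.80 ± 0.16 (adjusted p = 0.00416) and 2.12 ± 0.50 (adjusted p = 0.0152), that of HLA-B 2.96 without DAC 2, and reads can be shared between HLA genes. B2M, the common light chain, was not called (0.06, adjusted p = 0.862). HLA-E, a class I molecule read by natural killer cells, rose by 1.13 ± 0.26, and PSMB8, an immunoproteasome subunit, by 1.69 ± 0.47 from 0.987 and 0.926 CPM with DAC and 2.31 and 3.98 CPM with DAC+EPZ. The calls ended for HLA-C without DAC 1 or DAC+EPZ 2, for HLA-B without DAC 1, DAC+EPZ 1 or DAC+EPZ 2, for HLA-E without DAC 2, DAC+EPZ 1 or DAC+EPZ 2 and for PSMB8 without DAC 1, DAC 2 or DAC+EPZ 2. The lower member was ULBP1, a ligand of the killer cell receptor NKG2D, described with the stress genes below.

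Interferon-stimulated genes gave 3 higher and 1 lower of 46 (median 0.27), a share higher of 6.52%, and 1 and 1 by DESeq2's Wald test. IFI30, a lysosomal thiol reductase, rose by 0.96 ± 0.24, UBE2L6, an enzyme of ISG15 conjugation, by 1.28 ± 0.34, and SAMD9 by 1.72 ± 0.47. OAS3, a sensor of double-stranded RNA, fell by 0.63 ± 0.17. The calls of IFI30, UBE2L6 and SAMD9 ended with any 1 of the 4 libraries left out, and that of OAS3 without DAC 1, DAC+EPZ 1 or DAC+EPZ 2.

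Most of the DNA replication genes fell. Of 58 tested members 37 were called, all lower, and 57 of 58 changes were negative (median -0.54), beside 2.02% of all genes called lower. CDC45, part of the replicative helicase, had 83.7 and 87.3 CPM with DAC and 44.3 and 44.5 CPM with DAC+EPZ (-0.94 ± 0.11, adjusted p = 4.31e-05). MCM10, which helps start the helicase, had 84.7 and 79.2 CPM with DAC and 43.7 and 46.6 CPM with DAC+EPZ (-0.86 ± 0.12, adjusted p = 0.000135). EXO1, a nuclease of DNA repair, had 116 and 112 CPM with DAC and 64.6 and 59.7 CPM with DAC+EPZ (-0.88 ± 0.12, adjusted p = 0.000135). In each of the 3 genes both DAC+EPZ libraries lay between 50 and 60% of the DAC levels, and the calls were present without each library in turn.

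The loading factors ORC1, CDC6 and CDT1 fell by 1.07 ± 0.15, 0.87 ± 0.12 and 0.90 ± 0.17, and PCNA, the sliding clamp, had 179.6 and 209 CPM with DAC and 126 and 116 CPM with DAC+EPZ (-0.69 ± 0.11). All 6 genes of the core helicase, MCM2 to MCM7, fell, by 0.44 (MCM7) to 0.64 (MCM5) on the log2 scale. RRM2 and TK1, enzymes that supply nucleotides, fell by 0.76 ± 0.12 and 0.65 ± 0.15. The calls of CDT1, MCM2, MCM3 and MCM5 ended without DAC+EPZ 1, that of MCM4 without DAC 1, and those of MCM7 and TK1 with any 1 of the 4 libraries left out. The summed level of the list was 6065 and 5879 CPM with DAC and 4175 and 4218 CPM with DAC+EPZ. In bulk RNA, fewer cells in a phase of the cell cycle and less RNA per cell cannot be told apart. Without single libraries the number of called members was 23 or 27 when DAC 1 or DAC 2 was left out and 24 or 20 when DAC+EPZ 1 or DAC+EPZ 2 was.

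Promoters of such genes often carry a site for E2F, the transcription factor family that turns on S-phase genes. RefSeq promoter windows (250 bases before to 50 after the start, GRCh38.p14) were searched on both strands for TTTNGCGC. A window was found for 32 of the 37 called members, and 14 of them (43.8%) held a match, against 5 of 18 (27.8%) of the members tested and not called. Of the 12034 tested genes with a window (75.4% of those tested) 3.52% held it, and 1.79% of all 35116 RefSeq windows did. A match describes these letters and not binding. The stretches around the match in 3 called genes are shown because these genes fell together: MCM6 (chr2:135876487-135876564, minus strand), CDC25A (chr3:48188419-48188496, minus strand) and GMNN (chr6:24775298-24775375, plus strand), with the motif in capitals. In MCM6 the capitals cover matches on both strands that overlap.
MCM6: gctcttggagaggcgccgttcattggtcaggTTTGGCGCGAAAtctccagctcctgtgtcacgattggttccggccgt
CDC25A: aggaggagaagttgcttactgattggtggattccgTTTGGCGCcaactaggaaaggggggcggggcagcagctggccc
GMNN: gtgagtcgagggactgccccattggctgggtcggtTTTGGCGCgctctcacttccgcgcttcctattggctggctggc
MCM6, a helicase subunit, had 70.9 and 64.0 CPM with DAC and 45.6 and 47.4 CPM with DAC+EPZ (-0.54 ± 0.12, adjusted p = 0.00811). GMNN, or geminin, which blocks a second round of replication, had 49.7 and 61.8 CPM with DAC and 37.8 and 33.2 CPM with DAC+EPZ (-0.65 ± 0.13, adjusted p = 0.00407). The call of MCM6 ended without DAC 1, DAC+EPZ 1 or DAC+EPZ 2 and that of GMNN without DAC 2 or DAC+EPZ 2.

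Part of the mitosis and spindle genes fell as well. Of 77 members 34 were called, all lower (44.2%, beside 2.02% of all genes), and 76 of 77 changes were negative (median -0.45). CDC25A, the phosphatase that activates cyclin-dependent kinases and is shown above, had 55.9 and 53.5 CPM with DAC and 30.0 and 27.2 CPM with DAC+EPZ (-0.94 ± 0.13, adjusted p = 0.000144). NUSAP1, a microtubule-bundling protein, had 243 and 229 CPM with DAC and 155 and 139.7 CPM with DAC+EPZ (-0.68 ± 0.11, adjusted p = 0.000818). KIF11, the motor that separates spindle poles, had 144 and 138 CPM with DAC and 87.0 and 84.5 CPM with DAC+EPZ (-0.72 ± 0.12, adjusted p = 0.000975). CCNA2, or cyclin A, fell by 0.66 ± 0.12, BIRC5, or survivin, by 0.64 ± 0.11, and AURKA and AURKB, the mitotic kinases, by 0.55 ± 0.11 and 0.64 ± 0.14, the last 2 calls being lost without DAC+EPZ 2 and without DAC 1, DAC 2 or DAC+EPZ 1, respectively. MKI67 and TOP2A, commonly used proliferation markers, missed the threshold with changes of -0.51 and -0.45 (adjusted p = 0.0594 and 0.0607). The number of called members was 10 or 21 when DAC 1 or DAC 2 was left out and 17 or 11 when DAC+EPZ 1 or DAC+EPZ 2 was.

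TTTGAA, a form of the cell cycle homology region, an element of promoters used late in the cell cycle, was found in 16 of 28 windows of called mitosis genes (57.1%), in 28 of 38 (73.7%) of those not called, in 14.1% of the tested genes with a window and in 15.2% of all windows. The match in KIF11 (chr10:92593067-92593129, plus strand, GRCh38.p14) lies on the opposite strand and is shown in capitals as the reverse complement.
KIF11: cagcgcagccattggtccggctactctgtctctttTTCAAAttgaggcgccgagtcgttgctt
The share was thus lower among the called members than among those not called, a difference that was not tested.

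Replication-dependent histone genes, transcribed in S phase, gave 17 called of 63, all lower (27.0%, beside 2.02% of all genes). All 63 changes were negative (median -0.51). HIST1H2BE, a core histone gene, had 121 and 145 CPM with DAC and 82.9 and 78.2 CPM with DAC+EPZ (-0.72 ± 0.13, adjusted p = 0.00209) and lost its call without DAC 2. The other 2 members with the smallest adjusted p were lower without DAC than with it. HIST1H4F had 15.7 and 16.7 CPM with DAC and 4.63 and 5.77 CPM with DAC+EPZ, against 0.0906 and 0.0918 CPM with DMSO and 0 and 0 CPM with EPZ. HIST1H1T, a linker histone gene of the testis, had 30.2 and 33.8 CPM with DAC and 15.2 and 15.3 CPM with DAC+EPZ, against 8.70 and 7.44 CPM with DMSO and 2.81 and 3.61 CPM with EPZ. Both were thus highest with DAC alone, and they fell by 1.64 ± 0.23 (adjusted p = 0.000318) and 1.07 ± 0.16 (adjusted p = 0.000453) with EPZ. Histone copies are nearly identical and can share reads. The number of called members was 7 or 2 when DAC 1 or DAC 2 was left out and 9 or 3 when DAC+EPZ 1 or DAC+EPZ 2 was, and 34 in a fit of the 8 Be(2)-C libraries alone.

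Genes of the amino acid and unfolded protein response, of which the transcription factor ATF4 controls a part, held several of the largest falls. Of 72 tested members 26 were called, all lower (36.1%, beside 2.02% of all genes, median -0.41). SLC7A11, the cystine transporter, had 46.8 and 85.2 CPM with DAC and 12.7 and 9.02 CPM with DAC+EPZ (-2.59 ± 0.27, adjusted p = 1.06e-05). INHBE, a hormone subunit induced by stress, had 6.50 and 14.6 CPM with DAC and 1.34 and 1.57 CPM with DAC+EPZ (-2.85 ± 0.36, adjusted p = 8.3e-05; -2.17 without DAC 2). ATF5, a transcription factor of the pathway, had 22.4 and 30.9 CPM with DAC and 8.01 and 7.55 CPM with DAC+EPZ (-1.77 ± 0.22, adjusted p = 7.65e-05). For all 3 genes the 2 DAC libraries differed, DAC 2 being the higher, and both lay above both DAC+EPZ libraries.

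GDF15, a secreted stress cytokine, had 2.63 and 7.50 CPM with DAC and 0.267 and 0.419 CPM with DAC+EPZ (-3.85 ± 0.64, adjusted p = 0.000876). Its change was -4.44 without DAC 1 and -2.93 without DAC 2. CHAC1, which degrades glutathione, had 12.0 and 26.1 CPM with DAC and 4.54 and 6.08 CPM with DAC+EPZ (-1.84 ± 0.33; -1.19 and no longer called without DAC 2). TRIB3, a pseudokinase induced by ATF4, had 28.7 and 53.5 CPM with DAC and 14.8 and 18.7 CPM with DAC+EPZ (-1.30 ± 0.26, lost without DAC 2 or DAC+EPZ 1). ASNS, which makes asparagine, had 140.2 and 194 CPM with DAC and 92.2 and 86.1 CPM with DAC+EPZ (-0.90 ± 0.15). GPT2, a transaminase, changed by -1.01 ± 0.16, and SLC1A5, the glutamine carrier, by -0.75 ± 0.14. The transfer RNA ligase gene WARS fell by 0.73 ± 0.12; AARS, GARS and IARS fell by 0.42 ± 0.10, 0.48 ± 0.12 and 0.39 ± 0.11. The calls of AARS and IARS ended with any 1 of the 4 libraries left out, that of GARS without DAC 2, DAC+EPZ 1 or DAC+EPZ 2 and that of SLC1A5 without DAC 2 or DAC+EPZ 1.

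The gene ATF4 itself was at 512 and 643 CPM with DAC and 550 and 523 CPM with DAC+EPZ and was not called (-0.11, adjusted p = 0.722). HSPA5, the main chaperone of the endoplasmic reticulum, was not called either (0.27, adjusted p = 0.589). The summed level of the list was 12220 and 13770 CPM with DAC and 10880 and 10590 CPM with DAC+EPZ, against 12900 and 13370 CPM with DMSO. The number of called members rested largely on DAC 2: it was 7 with DAC 2 left out, against 25 with DAC 1, 11 with DAC+EPZ 1 and 12 with DAC+EPZ 2 left out.

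The element TGATGNAA, bound by ATF4 with C/EBP proteins, was found in promoter windows of CHAC1 (chr15:40953251-40953280, plus strand), ASNS (chr7:97872458-97872487, minus strand) and SLC1A5 (chr19:46784893-46784922, minus strand), RefSeq GRCh38.p14. They are shown with the element in capitals as examples of the amino acid response genes that fell, and in CHAC1 it lies on the opposite strand.
CHAC1: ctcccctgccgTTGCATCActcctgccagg
ASNS: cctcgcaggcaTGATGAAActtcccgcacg
SLC1A5: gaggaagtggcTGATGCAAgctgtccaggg
Only 20 of the 26 called members (76.9%) had a window. The element lay in 7 of these 20 and also in 9 of 38 windows of list members not called, a difference that was not tested. It was present in 3.62% of all windows.

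**Figure D4:**
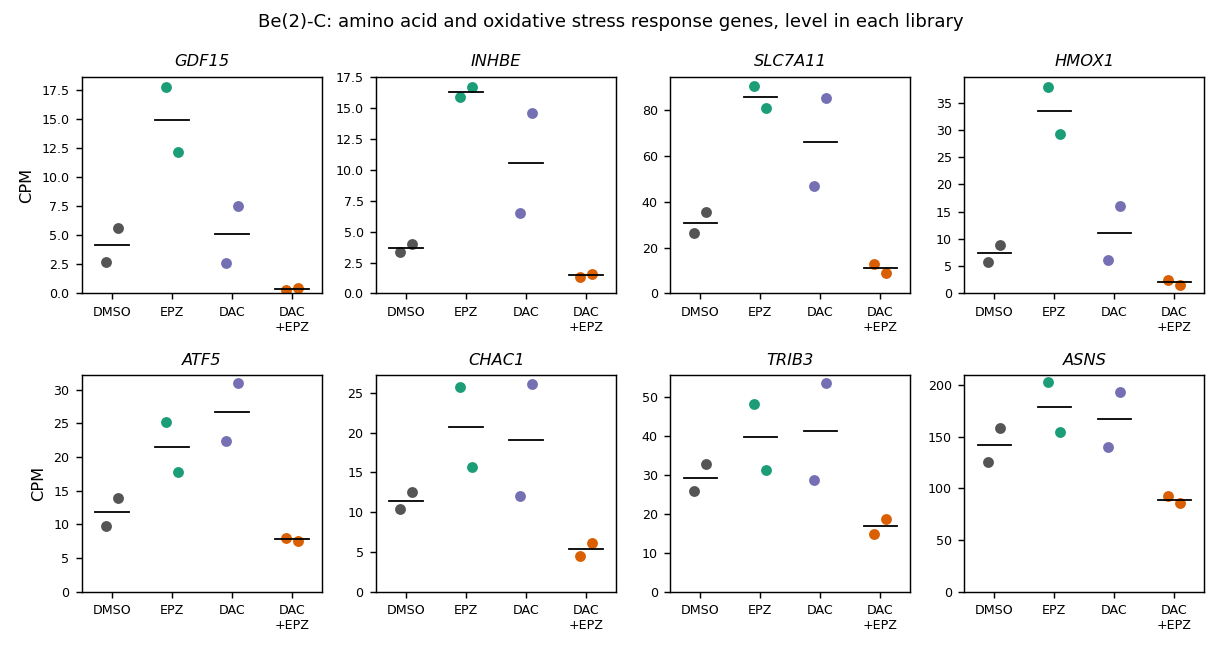
Each panel shows 1 stress response gene; points are single Be(2)-C libraries, horizontal bars the mean of 2 libraries, and the vertical axis the level in CPM from 0. Both DAC+EPZ libraries lie below the DAC and the DMSO libraries in all 8 genes, while the 2 DAC libraries stand apart (INHBE 6.50 and 14.6 CPM).

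Oxidative defence genes under the transcription factor NRF2 gave 4 called of 41, all lower (9.76%, beside 2.02% of all genes, median -0.28). SLC7A11 is on both lists. HMOX1, or heme oxygenase, had 6.17 and 16.1 CPM with DAC and 2.49 and 1.57 CPM with DAC+EPZ (-2.41 ± 0.39, adjusted p = 0.000674; -1.58 without DAC 2). NQO1, a quinone reductase, had 44.2 and 68.7 CPM with DAC and 24.2 and 19.6 CPM with DAC+EPZ (-1.36 ± 0.19, adjusted p = 0.000161). GCLM, a subunit of the first enzyme of glutathione synthesis, fell by 0.72 ± 0.20, a call that ended with any 1 of the 4 libraries left out. GCLC, its partner subunit, and TXNRD1, thioredoxin reductase, were not called (-0.08 and -0.38, adjusted p = 0.812 and 0.0931).

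The p53 target list held calls in both directions, 7 higher and 3 lower of 38 (median 0.04). The shares were 18.4% and 7.89%, beside 3.42% and 2.02% of all genes. IGFBP3 is described above. PLK2, a polo-like kinase, had 61.2 and 69.4 CPM with DAC and 115 and 109 CPM with DAC+EPZ (0.78 ± 0.11, adjusted p = 0.000194). BTG2, an antiproliferative gene, had 43.4 and 43.5 CPM with DAC and 65.8 and 71.4 CPM with DAC+EPZ (0.66 ± 0.11), and CCNG2, TP53INP1, SPATA18 and SESN1 rose by 0.49 to 0.80. GDF15, DDB2 and POLH fell. Of these, CCNG2 lost its call without DAC 2 or DAC+EPZ 1, TP53INP1 without DAC 1, DAC 2 or DAC+EPZ 1, SPATA18 without DAC 1, DAC 2 or DAC+EPZ 2, POLH without DAC 1 or DAC+EPZ 1, and SESN1 and DDB2 with any 1 of the 4 libraries left out. CDKN1A, the p53 target p21, was at 9.38 and 10.4 CPM with DAC and 11.2 and 10.3 CPM with DAC+EPZ (0.13, adjusted p = 0.816). The higher count was 4 or 3 when DAC 1 or DAC 2 was left out and 4 or 5 when DAC+EPZ 1 or DAC+EPZ 2 was.

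MYC and MYCN target genes gave 6 called of 58, all lower (10.3%, beside 2.02% of all genes, median -0.18). LDHA, lactate dehydrogenase A, had 77.7 and 79.1 CPM with DAC and 48.1 and 46.9 CPM with DAC+EPZ (-0.72 ± 0.11, adjusted p = 0.000396). SHMT2, of mitochondrial folate metabolism, fell by 0.73 ± 0.15 and TFRC, the transferrin receptor, by 0.59 ± 0.13; the calls ended without DAC 2, DAC+EPZ 1 or DAC+EPZ 2 and without DAC 1 or DAC+EPZ 2, respectively. The count was 3 or 2 when DAC 1 or DAC 2 was left out and 3 or 1 when DAC+EPZ 1 or DAC+EPZ 2 was.

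Developmental regulators bound by Polycomb complexes gave 1 higher and 1 lower of 51 (median 0.18), a share close to that of all genes in both directions. A further 39 of the 90 matched genes did not pass the filter on low counts, and 61 of the 90 lay below 1 CPM in all 4 libraries. MSX2, a homeobox gene, rose by 0.60 ± 0.15 (48.0 and 57.5 CPM with DAC and 89.5 and 70.7 CPM with DAC+EPZ; lost without DAC 1 or DAC+EPZ 1), and WT1 fell from 21 counts over the DAC libraries to 3 over the DAC+EPZ libraries, a ratio of 0.158 (counting interval 0.0302 to 0.529), with the call lost when any 1 of the 4 libraries was left out. Of 18 HOX genes HOXD11 was called, with 0.247 and 0.0926 CPM with DAC and 1.51 and 0.629 CPM with DAC+EPZ (2.59 ± 0.72; 3.43 without DAC 1 and 1.79 without DAC+EPZ 1), and lost its call without DAC 1, DAC 2 or DAC+EPZ 1. Clustered protocadherins gave 2 higher of 52 (3.85%, close to the 3.42% of all genes). They were PCDHB7 (0.92 ± 0.25) and PCDHB16 (0.60 ± 0.16), of a cluster whose similar copies can share reads. PCDHB7 lost its call with any 1 of the 4 libraries left out and PCDHB16 without DAC 1, DAC 2 or DAC+EPZ 2.

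Germline and cancer-testis genes, a class that loss of DNA methylation is known to activate, were looked at with EPZ on DAC. Of 24 cancer-testis genes 2 were called, both lower (8.33%, beside 2.02% of all genes). Of 40 germline genes 1 was called in each direction (2.5% each, beside 3.42% of all genes higher and 2.02% lower). MAGEB2 had 2.96 and 3.15 CPM with DAC and 1.25 and 0.629 CPM with DAC+EPZ. CTCFL, a germline paralogue of the insulator protein CTCF, had 1.81 and 1.76 CPM with DAC and 0.623 and 0.524 CPM with DAC+EPZ. TDRD12, of the piRNA pathway, had 9.05 and 8.71 CPM with DAC and 4.81 and 3.98 CPM with DAC+EPZ. In all 3 both DAC libraries lay above both DAC+EPZ libraries. They fell by 1.66 ± 0.40 (-2.26 without DAC+EPZ 1), 1.61 ± 0.45 and 1.01 ± 0.21, while with DMSO each lay below 0.2 CPM in both libraries. The calls ended without DAC 1, DAC 2 or DAC+EPZ 2 for MAGEB2, with any 1 library left out for CTCFL and without DAC+EPZ 2 for TDRD12. The germline gene called higher was REC8, a cohesin subunit of meiosis (0.73 ± 0.21; not called without DAC 1, DAC 2 or DAC+EPZ 2). The summed level of the cancer-testis list was 51.8 and 54.5 CPM with DAC and 54.6 and 46.9 CPM with DAC+EPZ, so those ranges overlap.

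The remaining lists are set beside 3.42% of all genes called higher and 2.02% called lower. Imprinted genes gave 1 higher and 1 lower of 30 (3.33% each), and immediate early and stress genes 1 and 1 of 36 (2.78% each). Cholesterol synthesis gave 2 lower of 35 (5.71%). Schwann and glial markers gave 2 higher (15.4%) and 1 lower (7.69%) of only 13. The lower imprinted gene was GRB10, an adaptor of insulin receptor signalling (-1.41 ± 0.38; -0.68 without DAC 2, and not called without DAC 2 or DAC+EPZ 1). The higher one was PPP1R9A, or neurabin, an actin-binding protein of neurons (1.42 ± 0.34; the call ended with any 1 of the 4 libraries left out). The cholesterol genes included ACAT2, a thiolase (-0.55 ± 0.12; not called without DAC 2 or DAC+EPZ 2). Of the stress genes, DUSP6, a phosphatase of ERK kinases, rose by 1.12 ± 0.21 (not called without DAC 1 or DAC+EPZ 1) and HSPA1B, a heat shock chaperone, fell by 0.55 ± 0.16, with the call lost when any 1 of the 4 libraries was left out; HSPA1B and HSPA1A are near-identical and can share reads. The glial calls included NGFR, already given, and SOX2, a stem cell factor that fell by 0.81 ± 0.21 (lost when any 1 of the 4 libraries was left out). Epithelial, haematopoietic and endothelial markers gave 0 called of 8, 6 and 8 tested by edgeR's test and by DESeq2's Wald test, and 2, 1 and 0 at an unadjusted p under 0.05.

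Of the called genes with a log2 CPM averaging 1 or more over the 16 libraries, several with the largest rises were almost absent from Be(2)-C with DAC. That mean takes in IMR5-75, where with DAC C1orf115 had 24.15 and 25.19 CPM and F2R 63.1 and 67.6 CPM. CNR1 had 46.9 and 48.0 CPM there and NLGN4X 32.7 and 36.1 CPM. Such genes met the level through IMR5-75, so it is no filter on Be(2)-C, whose values follow. C1orf115 had 0 counts over both DAC libraries and 12 over both DAC+EPZ libraries, at least 4.42-fold higher against 3 counts over the group (adjusted p = 0.0181), and lost its call without DAC 1, DAC 2 or DAC+EPZ 2. F2R, the thrombin receptor, had 3 counts with DAC and 40 with DAC+EPZ, a ratio of 14.7 with a counting interval of 4.69 to 74.5 (0.0823 and 0.185 CPM with DAC and 2.23 and 1.57 CPM with DAC+EPZ). Its fitted change was 3.78 ± 0.52, and 4.38 without DAC 2. CNR1, the cannabinoid receptor of neurons, had 0.165 and 0.185 CPM with DAC and 1.07 and 1.36 CPM with DAC+EPZ, and SLC19A3, a thiamine carrier, 0.329 and 0 CPM with DAC and 1.43 and 0.839 CPM with DAC+EPZ. NLGN4X, a synaptic adhesion gene, had 0.411 and 0.185 CPM with DAC and 1.87 and 1.89 CPM with DAC+EPZ (2.58 ± 0.46, and 3.26 without DAC 1). SLC25A24, a mitochondrial carrier, had 0.905 and 0.741 CPM with DAC and 4.90 and 4.72 CPM with DAC+EPZ (2.52 ± 0.40, adjusted p = 0.000617). TGFBI, a matrix protein, had 0.0823 and 0.278 CPM with DAC and 0.979 and 1.36 CPM with DAC+EPZ (2.66 ± 0.65; 2.01 without DAC 1 and 3.65 without DAC 2), and KIAA0040 0.247 and 0.0926 CPM with DAC and 0.712 and 1.47 CPM with DAC+EPZ (2.54 ± 0.70; 3.38 without DAC 1). The change of SLC19A3 was 2.66 ± 0.69, and 1.77 without DAC 2; without DAC 1 the remaining DAC library was at 0 and no fold was taken. The calls ended for CNR1 without DAC 1, DAC 2 or DAC+EPZ 2, for SLC19A3 without DAC 2 or DAC+EPZ 1, for TGFBI without DAC 1 or DAC+EPZ 2 and for KIAA0040 without DAC 1, DAC 2 or DAC+EPZ 2.

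Among the 10 largest falls at the same minimum level, 5 of the genes are on the ATF4 or NRF2 lists: GDF15, INHBE, SLC7A11, HMOX1 and FAM129A, a translation regulator with 1.73 and 2.96 CPM with DAC and 0.623 and 0.105 CPM with DAC+EPZ (-2.56 ± 0.58; -4.34 without DAC+EPZ 1, -1.88 without DAC+EPZ 2, and not called without DAC 2 or DAC+EPZ 2). ULBP1 had 2.14 and 4.45 CPM with DAC and 0.623 and 0.734 CPM with DAC+EPZ (-2.25 ± 0.40, adjusted p = 0.00137; -1.66 without DAC 2) and ADM2, a peptide hormone gene, 3.37 and 4.08 CPM with DAC and 0.801 and 0.839 CPM with DAC+EPZ (-2.17 ± 0.43; not called without DAC+EPZ 1). LAMA1, a laminin chain, and FAM84B each had 15 counts over the DAC libraries and 2 over the DAC+EPZ libraries, a ratio of 0.147 (counting interval 0.0164 to 0.634), and both lost their call without DAC 1, DAC 2 or DAC+EPZ 1. Their fitted change was -2.64, and -1.59 without DAC+EPZ 1, whose counts were 0. Fitted changes at such counts depend on the prior count of the fit. LAMA1 and FAM84B lay under 1 CPM in every Be(2)-C library and met the minimum level through the other cell line. With DAC, LAMA1 had 157 and 142 CPM there and FAM84B 41.8 and 43.4 CPM. WT1 completes these 10, with -2.58 ± 0.69 and -3.23 without DAC+EPZ 2. Called genes below that level, such as DMGDH and OSCAR among the falls, are not ranked here.

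The same drug was given without DAC in libraries that the comparison above does not use. For EPZ against DMSO, 1630 genes were called in Be(2)-C (10.2%), 855 higher (5.35%) and 775 lower (4.85%). Of the 546 genes higher with EPZ on DAC, 286 were also higher there (52.4%, and 33.5% of the 855), and of the 323 lower, 201 were also lower there (62.2%, and 25.9% of the 775). The counts for EPZ against DMSO were 287 higher and 291 lower without DMSO 1, 347 and 321 without DMSO 2, and 502 lower without EPZ 2. The shared calls fell to between 131 (without DAC 2) and 187 (without DAC+EPZ 1) higher and between 63 (without DAC+EPZ 2) and 108 (without DAC 2) lower when a DAC or DAC+EPZ library was left out, and to 134 and 127 without DMSO 1 and 150 and 125 without DMSO 2. None of the 546 was called lower without DAC, whereas 18 of the 323 were called higher without DAC. By sign alone, 529 of the 546 (96.9%) also lay higher and 272 of the 323 (84.2%) also lay lower without DAC. Of all genes tested, 54.2% had a positive change there. The matrix list gave 17 higher and 3 lower of 68 for EPZ against DMSO, with 7 higher without DMSO 1 and 8 without DMSO 2. More cell cycle genes were called lower without DAC than on it. Without DAC, 50 of 58 DNA replication genes were called lower (median -0.72), 64 of 77 mitosis genes (median -0.66) and 54 of 63 histone genes (median -1.03). On DAC these counts were 37, 34 and 17. The test of the difference, described below, called 0 members of each of these lists. FN1 changed by 1.37 ± 0.17 without DAC, CDH11 by 1.65 ± 0.19, NGFR by 2.17 ± 0.36 and CDC45 by -0.94 ± 0.11, all called. For these 4 genes the difference between both changes was not called (adjusted p between 0.481 and 1.00).

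The test of the difference itself, the change with DAC minus the change without, called 41 genes (0.257%), 39 lower (0.244%) and 2 higher (0.0125%), beside 1203 genes at an unadjusted p under 0.05. Of the 39, 29 were among the genes that fell with EPZ on DAC, and 15 of the 41 are on the ATF4 list. INHBE had 3.35 and 4.04 CPM with DMSO and 15.9 and 16.8 CPM with EPZ, so it rose by 2.14 ± 0.29 without DAC and fell by 2.85 ± 0.36 with it (difference -4.99 ± 0.46, adjusted p = 4.63e-06). SLC7A11 had 26.2 and 35.4 CPM with DMSO and 90.2 and 80.7 CPM with EPZ and changed by 1.47 ± 0.24 without DAC (difference -4.06 ± 0.36, adjusted p = 4.63e-06). GDF15 changed by 1.84 ± 0.35 without DAC (difference -5.69 ± 0.72, adjusted p = 0.000233), from 2.72 and 5.60 CPM with DMSO and 17.7 and 12.1 CPM with EPZ. In INHBE and GDF15 both EPZ libraries lay above the 6 other Be(2)-C libraries, in SLC7A11 the library DAC 2 lay within the range of the EPZ libraries, and in all 3 both DAC+EPZ libraries were the lowest.

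HMOX1 (5.80 and 8.91 CPM with DMSO and 37.9 and 29.2 CPM with EPZ; difference -4.60 ± 0.48), FAM129A (-4.82 ± 0.69), ULBP1 (-4.17 ± 0.54), ADM2 (-3.63 ± 0.55) and ATF5 (-2.62 ± 0.30) followed the same order of signs, higher with EPZ alone and lower with EPZ on DAC, each called in both. NQO1 was unlike them, since it was not called without DAC (0.11 ± 0.18) and fell with it (difference -1.46 ± 0.26). SEL1L, of protein quality control in the endoplasmic reticulum, changed by 0.70 ± 0.12 without DAC and -0.14 ± 0.12 with it (difference -0.84 ± 0.17, adjusted p = 0.0362). SEL1L3, SERPINE2 and PTPRH rose without DAC, by 4.45, 1.83 and 1.72, and were not called with it. The 2 genes with a higher change on DAC were DCN, the matrix proteoglycan decorin, which fell without DAC (-1.30 ± 0.14) and was not called on it (-0.34 ± 0.14; difference 0.96 ± 0.20, adjusted p = 0.0439), and DBI, which binds acyl-CoA (-0.67 ± 0.14 and 0.29 ± 0.14; difference 0.96 ± 0.20, adjusted p = 0.0347). The 2 higher calls ended without DAC 1, DAC 2, DAC+EPZ 1, DMSO 1 or DMSO 2, the count being 20 without EPZ 1 and 1 without EPZ 2. The 39 lower calls became 18 without DAC 2, 24 without either DAC+EPZ library and 16 without DMSO 1.

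The 2 libraries of a group differed for these stress genes. DAC 2 had higher levels than DAC 1 for INHBE (14.6 and 6.50 CPM), GDF15 (7.50 and 2.63 CPM), HMOX1 (16.1 and 6.17 CPM) and SLC7A11 (85.2 and 46.8 CPM), and DMSO 2 lay above DMSO 1 for the same 4 genes. What set the libraries of a group apart was not tested.

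**Figure D5:**
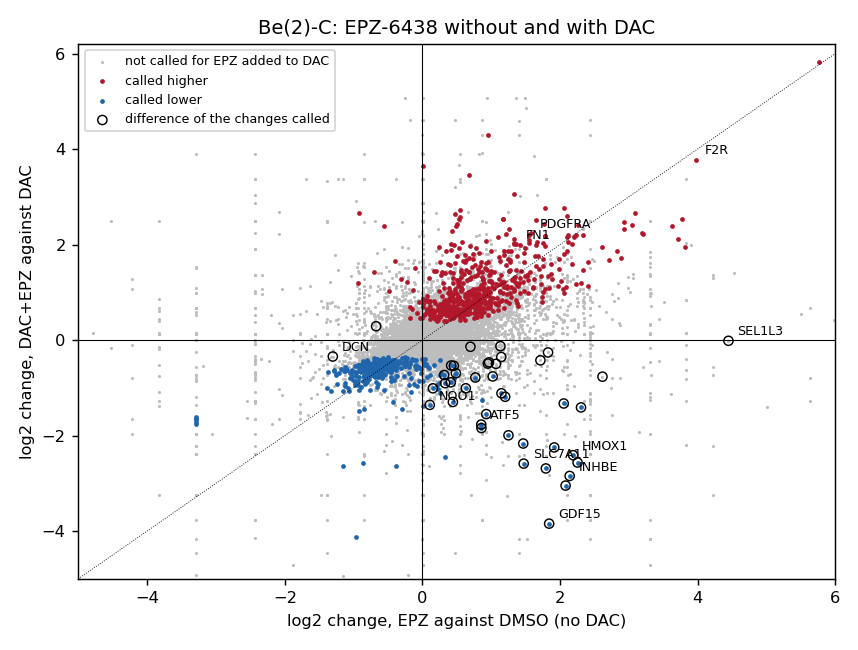
Each point is a gene tested in Be(2)-C; the horizontal axis is the log2 change of EPZ against DMSO and the vertical axis the log2 change of DAC+EPZ against DAC, with genes called in the latter in colour, the 41 genes whose difference was called ringed, and the dotted line marking equal changes. Most coloured points lie in the upper right or lower left, and ringed stress genes such as GDF15, INHBE and HMOX1 lie at the lower right; 4 genes fall outside the axes.

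In IMR5-75 the same addition of EPZ to DAC called 309 genes (1.94%), 194 higher (1.22%) and 115 lower (0.72%). Of the 546 genes that rose in Be(2)-C, 49 were also called higher there (8.97%, and 25.3% of the 194), and of the 323 that fell, 48 were also called lower there (14.9%, and 41.7% of the 115). None was called in the opposite direction. By sign alone, 439 of the 546 (80.4%) also lay higher and 280 of the 323 (86.7%) also lay lower in IMR5-75. Of all genes tested, 49.0% had a positive change there. Of 77 mitosis genes 38 were called lower in IMR5-75 (median -0.49), but leaving out DAC 2, DAC+EPZ 1 or DAC+EPZ 2 of that line left 1, 3 or 4 called. The matrix list gave 12 of 68 higher in IMR5-75 (17.6%, median 0.34), with 8, 4, 7 and 4 called when DAC 1, DAC 2, DAC+EPZ 1 or DAC+EPZ 2 was left out. The ATF4 list had 1 called lower of 72 in IMR5-75, 0 when any 1 of these 4 libraries was left out, and 26 in Be(2)-C, and the difference between these counts was not tested. CHGB (0.75 ± 0.13), IGFBP3 (0.86 ± 0.17), NUSAP1 (-0.62 ± 0.12) and KIF11 (-0.61 ± 0.12) were called in IMR5-75 in the same direction as in Be(2)-C. The IMR5-75 counts fell to 47 higher and 3 lower without DAC 2, 64 and 10 without DAC+EPZ 1, and 42 and 7 without DAC+EPZ 2 of that line. The shared calls fell to 14 higher and 2 lower, 21 and 4, and 16 and 5 without the same 3 libraries; leaving out Be(2)-C libraries gave 15 lower without DAC 1, 29 and 30 without DAC 2, 30 and 31 without DAC+EPZ 1, and 25 and 13 without DAC+EPZ 2.

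The test of the difference between lines called 81 genes (0.507%), 51 with a higher change in Be(2)-C (0.319%) and 30 with a lower one (0.188%), beside 1276 at an unadjusted p under 0.05. All 51 had risen in Be(2)-C, and 16 of the 30 had fallen there. PDGFRA, which rose in Be(2)-C, had 76.1 and 89.8 CPM with DAC and 74.2 and 58.5 CPM with DAC+EPZ in IMR5-75 (-0.32 ± 0.12; difference 2.56 ± 0.21, adjusted p = 1.31e-06). FN1 had 232 and 224 CPM with DAC and 326 and 262 CPM with DAC+EPZ in IMR5-75 (0.37 ± 0.13; difference 1.64 ± 0.19, adjusted p = 0.000167). CDH11 (1.89 ± 0.24), F2R (3.88 ± 0.54), SLC25A24 (2.87 ± 0.43), NLGN4X (2.77 ± 0.48) and PLK2 (0.71 ± 0.15) also had a larger log2 change in Be(2)-C. Their levels with DAC were higher in IMR5-75: CDH11 had 46.0 and 52.8 CPM there, against 4.11 and 3.43 CPM in Be(2)-C. SLC25A24 had 130 and 159 CPM against 0.905 and 0.741 CPM, and F2R 63.1 and 67.6 CPM against 0.0823 and 0.185 CPM. Whether the starting level bears on these differences was not tested. Of the 68 matrix genes, 6 had a higher change in Be(2)-C and DCN a lower one, the others of the 6 being SPARC (0.87 ± 0.16), COL4A1 (1.94 ± 0.32) and COL4A2 (2.28 ± 0.30). With DAC in IMR5-75 COL4A1 had 91.56 and 94.75 CPM and COL4A2 168 and 139.5 CPM.

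The 30 lower differences included stress genes. GDF15 had 12.0 and 8.11 CPM with DAC and 11.4 and 14.5 CPM with DAC+EPZ in IMR5-75 (difference -4.20 ± 0.72, adjusted p = 0.00693), and INHBE (-2.77 ± 0.44), SLC7A11 (-2.39 ± 0.43), HMOX1 (-2.55 ± 0.48), ULBP1 (-2.22 ± 0.44), ATF5 (-1.64 ± 0.31) and NQO1 (-1.42 ± 0.25) likewise fell in Be(2)-C and were not called in IMR5-75. HIST1H4F differed by -2.42 ± 0.34. HEPACAM2, with 0 CPM in both DAC+EPZ libraries of Be(2)-C, was also called, and no fold is given for it. Some genes rose in IMR5-75 and were not called in Be(2)-C: NEFM (1.09 in IMR5-75, difference -0.91 ± 0.18) and DCN (1.08 ± 0.27, difference -1.43 ± 0.31). The counts of called differences were 32 higher without Be(2)-C DAC 1, 18 higher and 9 lower without Be(2)-C DAC 2, 22 and 7 without Be(2)-C DAC+EPZ 1, and 23 and 10 without Be(2)-C DAC+EPZ 2. When IMR5-75 libraries were left out instead, DAC 1 gave 31 higher and 18 lower, DAC 2 gave 30 higher, DAC+EPZ 1 gave 22 higher and 18 lower, and DAC+EPZ 2 gave 23 higher.

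Called genes were occasionally neighbours. Of the tested genes 14961 could be placed in the RefSeq gene order (GRCh38.p14, order only), and 3 runs of 3 consecutive tested genes and 40 runs of 2 were called in one direction. Both lower runs of 3 lay in the histone cluster of chromosome 6, HIST1H2AB with HIST1H2BB and HIST1H3C, and HIST1H2BH with HIST1H3G and HIST1H4H. The higher run of 3 was NKD2, a WNT antagonist, with SLC12A7 and SLC6A19, 2 membrane transporters, on chromosome 5. Pairs included COL4A1 and COL4A2, HLA-C and HLA-B, and the divergent pair BRCA1 and NBR2, which fell together (-1.04 ± 0.12 for BRCA1). No source used here gives the strand setting of the counting, and reads of overlapping neighbours cannot be told apart. The share of tested genes called higher ranged over chromosomes from 2.02% (chromosome 16) to 5.50% (chromosome X), and that called lower from 0.763% (chromosome 13) to 4.26% (chromosome 20).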

How the data were processed

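RNA-seq libraries of 2 neuroblastoma lines under 4 treatments, 2 per group and 16 in all, were used as the authors deposited them, as raw counts per gene. Per the submitters' processing notes, TopHat2 (2.0.5), HTSeq (0.5.3p9), DESeq2 and the human build hg19 were used; per the labels' protocols, total RNA was depleted of ribosomal RNA and read strand-specifically. No source used here names the gene annotation or the strand setting.

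Genes were filtered with filterByExpr and normalised by TMM, and edgeR's (4.0.16) quasi-likelihood test was fitted to all 16 libraries with 8 groups and 8 residual degrees of freedom, p-values being adjusted by Benjamini-Hochberg over 15967 genes. DESeq2 (1.42.0) was an alternative, beside other filters, scalings, sample sets, a replicate block and leaving out libraries. Counting intervals are exact at 95% and, like floors of 3 counts, cover counting error only. The test was checked on simulated counts. The members and gene lists were chosen with earlier results of these data known. Genes named are the 10 largest called changes in each direction with groups apart and a log2 CPM averaging 1 or more over the libraries, the 3 smallest adjusted p of each list with 3 or more calls, 8 genes always named, and the 3 highest and lowest of each difference test; others named from the lists were chosen after their values were seen, and some genes are not reported here. Promoter sequences are from RefSeq (GRCh38.p14) and were matched by symbol for 12034 genes. 3 listed symbols were not matched.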

Additional observations from a re-analysis of the deposited data

Results flagged for a closer look

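The change that EPZ brought on DAC differed from its change without DAC, by the test of that difference, for 41 genes in Be(2)-C. On the log2 scale the difference (change with DAC minus change without) was -5.69 for GDF15, -4.99 for INHBE, -4.82 for FAM129A, -4.60 for HMOX1, -4.17 for ULBP1, -4.06 for SLC7A11, -3.63 for ADM2, -2.62 for ATF5, -1.46 for NQO1 and -0.84 for SEL1L. For DBI and DCN it was 0.96 and 0.96.

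The change with EPZ on DAC differed between Be(2)-C and IMR5-75 for 81 genes. The difference (Be(2)-C minus IMR5-75, log2) was 3.88 for F2R, 2.87 for SLC25A24, 2.77 for NLGN4X, 2.56 for PDGFRA, 1.89 for CDH11, 1.64 for FN1 and 0.71 for PLK2. In the other direction it was -4.20 for GDF15, -2.77 for INHBE, -2.55 for HMOX1, -2.42 for HIST1H4F, -2.39 for SLC7A11, -2.22 for ULBP1, -1.64 for ATF5, -1.43 for DCN and -1.42 for NQO1.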

How the results depend on the processing

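No named gene called in Be(2)-C DAC+EPZ against DAC changed sign under any alternative run. With 2 libraries a group, leaving out 1 assumes that the lone library varies like the other groups, and fewer samples enter the test. Called genes, DAC+EPZ against DAC in Be(2)-C, numbered 213 to 305 higher and 101 to 151 lower (546 and 323 with all libraries). For EPZ against DMSO the ranges were 287 to 599 and 291 to 659, for the difference with and without DAC 0 to 20 and 16 to 50, for IMR5-75 42 to 133 and 3 to 95, and for the difference between lines 18 to 32 and 7 to 36. Members called lower numbered 7 to 25 for ATF4, 20 to 27 for DNA replication, 10 to 21 for mitosis, 2 to 9 for histones and 1 to 3 for MYC. Members called higher numbered 15 to 19 for matrix, 3 to 6 for neuronal, 4 to 5 for suppressors and receptors and 3 to 5 for p53. Shared calls numbered 131 to 227 higher and 63 to 209 lower with EPZ alone, and 14 to 38 and 2 to 45 with IMR5-75.

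Same-numbered DAC and DAC+EPZ libraries of Be(2)-C did not deviate together (r = -0.073 across 10660 genes). Other pairs of groups gave r from -0.507 (IMR5-75 DAC and DAC+EPZ) to 0.393 (IMR5-75 DMSO and DAC+EPZ). For Be(2)-C DAC+EPZ and EPZ it was -0.409. The labels do not say what a shared number means, and these values cannot settle it. With the replicate number as a block, 404 higher and 203 lower genes were called, 403 and 203 of them also called without it. The block gave 0 higher calls for the difference with and without DAC, 90 higher and 34 lower for IMR5-75, 28 and 19 between lines, 20 mitosis genes, and 131 shared lower calls with EPZ alone and 25 higher and 13 lower with IMR5-75.

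Without the low-count filter the difference with and without DAC had 28 higher and 81 lower, IMR5-75 408 higher, the lines 101 and 105, neuronal genes 13, histones 42 and shared higher calls with IMR5-75 109. Fitting the 8 Be(2)-C libraries or the 4 alone gave 34 and 40 histones, and DESeq2's Wald test 62 lower between lines; the cause was not tested. For the Be(2)-C contrast, DESeq2's Wald test called 493 higher and 341 lower, 452 and 300 of them shared, and its size factors in edgeR 547 and 320. In simulated counts 27.3% of 1.5-fold, 67.2% of 2-fold and 95.5% of 4-fold changes were called, so small changes can be missed. Unchanged genes made up 8 of the simulated calls (6.06%). Each simulated gene had 1 mean pooled over the 16 libraries of both lines. Genes almost absent from Be(2)-C but present in IMR5-75 were thus drawn above their Be(2)-C level, and these shares do not hold for them.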

Other observations

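Further gene groups were put together after the values had been seen, so their counts are descriptions only. Over all genes tested, 3.42% were called higher and 2.02% lower. Homologous recombination and Fanconi repair genes, which mend broken and crosslinked DNA, had 14 of 34 called lower (median -0.42). BRCA1 had 109 and 88.9 CPM with DAC and 49.2 and 47.1 CPM with DAC+EPZ (-1.04 ± 0.12). CHEK1, the checkpoint kinase, fell by 0.73 ± 0.13. Of the E2F and RB family, which governs entry into S phase, 8 of 25 were called lower (median -0.16). E2F1 had 118 and 126 CPM with DAC and 60.9 and 70.9 CPM with DAC+EPZ (-0.89 ± 0.14), and E2F2 and RBL1 fell by 1.06 ± 0.18 and 0.79 ± 0.14. In these genes both DAC+EPZ libraries lay below both DAC libraries, and the 5 calls were present without each library in turn.

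Of 40 receptor tyrosine kinase genes 11 were called higher (median 0.39), 3 of which are described in the report. EPHA5, an ephrin receptor, had 1.48 and 1.20 CPM with DAC and 4.81 and 4.72 CPM with DAC+EPZ (1.81 ± 0.31). RET, the receptor for glial cell line-derived factors, had 130.5 and 107 CPM with DAC and 189 and 226 CPM with DAC+EPZ (0.80 ± 0.17) and lost its call without DAC 2 or DAC+EPZ 2. MET, the receptor for hepatocyte growth factor, had 0.905 and 0.834 CPM with DAC and 3.56 and 3.15 CPM with DAC+EPZ (1.94 ± 0.45) and lost its call when any 1 of the 4 libraries was left out. Secreted WNT and BMP ligands and antagonists gave 8 of 36 called higher (median 0.39). Axon guidance genes gave 6 of 45 called higher (median 0.23), with NRP2, a semaphorin receptor, at 20.9 and 18.2 CPM with DAC and 34.3 and 36.0 CPM with DAC+EPZ (0.84 ± 0.13). Of 19 ganglioside synthesis genes 3 were called higher (median 0.11). ST8SIA1, the GD3 synthase, had 0.329 and 0.556 CPM with DAC and 2.23 and 1.36 CPM with DAC+EPZ (2.04 ± 0.48) and lost its call without DAC 1, DAC 2 or DAC+EPZ 1.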
